A study of Mus musculus with 6 samples.

Results

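The microRNAs (miRNAs) made from Mir155, Mir132, Mir212 and Mir147, which are known to rise when Toll-like receptor 4 (TLR4) is engaged, were measured in cultured mouse monocytes. They were chosen by name, as the 4 hairpins of these genes among 1174 annotated mouse miRNA hairpins, and each hairpin gives a 5p and a 3p arm, which makes 8 arms of the 974 arms that had reads. Bone marrow monocytes and macrophages (BMMs) of wild-type C57BL/6 mice received PBS (control, 3 samples) or 5 pg/ml lipopolysaccharide (LPS, 3 samples) for 4 h, and the small RNAs of each sample were sequenced. LPS, a glycolipid shed by Gram-negative bacteria, is the ligand of TLR4, and the comparison asks how a very low dose of it changed the miRNAs of these cells. The cells were cultured outside the animal, and the labels and the methods name different culture media. Neither says whether the samples of a group came from separate animals or cultures, so the p-values measure only the spread between these samples, which may be technical.

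miRNAs are short RNAs that are cut from a hairpin, load into an Argonaute protein and pair through bases 2 to 8 of their 5′ end (the seed) with target mRNAs, whose translation and stability they lower. In macrophages, engagement of TLR4 is known to switch on transcription of the miR-155 host gene and of the miR-132 and miR-212 cluster, and to raise miR-147. miR-155 is known to target Inpp5d, which encodes the phosphatase SHIP1, and Socs1, a brake on cytokine signalling. miR-132 and miR-212 are known as miRNAs driven by the transcription factor CREB, and miR-147 as a miRNA that dampens the cytokine response to TLR ligands.

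The mature sequences show which of these miRNAs can be read apart and which share a seed. They are given from RefSeq (GRCm38.p6), with the seed in capitals, for the 7 arms that matched an entry; miR-147-3p is named only.
miR-155-5p: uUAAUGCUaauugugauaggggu
miR-155-3p: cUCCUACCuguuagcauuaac
miR-132-3p: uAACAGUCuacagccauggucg
miR-212-3p: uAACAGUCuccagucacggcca
miR-132-5p: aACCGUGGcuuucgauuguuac
miR-212-5p: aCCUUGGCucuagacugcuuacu
miR-147-5p: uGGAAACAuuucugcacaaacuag
miR-132-3p and miR-212-3p share their seed with each other and with no other mature mouse miRNA of that table, and the seeds of the other 5 are each found in 1 mature miRNA only. The sequences of miR-132-3p and miR-212-3p are the same at 17 of 22 positions. Counted from 1 at the 5′ end, with the base of miR-132-3p first, they differ as A10C, C14U, U17C, U20C and G22A, so that reads of both could be told apart. Every read assigned to one of the 8 arms matched that arm alone.

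The 4 hairpins lie on the plus strand of 3 chromosomes (GRCm38, GENCODE M21 annotation). Mir155 lies at chr16:84714140-84714204, inside an exon of the long non-coding RNA Mir155hg. Mir212, at chr11:75173388-75173478, and Mir132, at chr11:75173682-75173747, are 203 bases apart and lie in an intron of the processed transcript 1700016P03Rik. Mir147, at chr2:122640803-122640881, lies in an untranslated region of the protein-coding gene AA467197.

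The samples held between 2201520 and 17691405 reads, of which 61.6% to 71.0% matched a miRNA hairpin. LPS 2 was the deepest sample and stood apart from the other 5 before any comparison of groups. Of its distinct sequences, 18.6% were read once, against 67.1% to 74.6% in the other samples. The myeloid miRNAs miR-223-3p, miR-142a-5p and miR-142a-3p, the 3 of the cell type check for these cells, summed to between 31563 and 36443 reads per 1000000 hairpin reads (RPM) in the 6 samples. LPS 2 had the lowest sum. There miR-142a-5p was at 18107 RPM against 23282 to 27085 RPM in the other 5 samples. miR-142a-3p was at 7757 RPM against 3741 to 4722 RPM, and miR-223-3p lay within the range of the others. Of the 3 erythroid arms, miR-144-3p was at 0 in all 6 samples and the others summed to at most 1.17 RPM. Some markers of other cells were higher in LPS 2 than elsewhere. The 5 epithelial arms of the miR-200 family and miR-205 summed to 152 RPM in LPS 2 and to 63.0 to 79.4 RPM in the other 5 samples, though miR-141-3p, 1 of the 5, was at 20.6 RPM in LPS 2 and 15.3 to 37.9 RPM elsewhere. The lymphoid miR-150-5p was at 49.2 RPM against 14.9 to 23.2 RPM. The liver miRNA miR-122-5p had 20 reads in LPS 2 and 1 read in the other 5 samples together. The sums of the endothelial arms (33.8 to 50.3 RPM), fibroblast and smooth muscle arms (6.00 to 11.7 RPM), muscle arms (0 to 0.583 RPM) and neuronal arms (0.366 to 3.34 RPM) were low in every sample, with miR-145a-5p, miR-1a-3p, miR-206-3p and miR-124-3p at 0 in all. The part of these other cells' miRNAs in the results below was not tested, and values without LPS 2 are given beside the comparisons of the groups.

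miR-155-5p, the guide strand of the miR-155 hairpin, was the most abundant of the 8 arms in each sample and was far higher in LPS 2 than anywhere else. In the control samples it was at 62.2, 75.3 and 49.0 RPM in replicates 1, 2 and 3, from 159, 129 and 116 reads. In the LPS samples it was at 72.6, 212.2 and 65.4 RPM, from 230, 2319 and 98 reads. LPS 1 and LPS 3 lay within the range of the control samples, and LPS 2 lay above all the others, at 3.27 times their mean of 64.9 ± 10.3 RPM (SD, n = 5). The 95% Wilson interval of LPS 2, which covers counting error only, was 204 to 221 RPM, and those of the other samples reached at most 89.4 RPM. Among all arms miR-155-5p ranked between the 117th (LPS 2) and the 165th place (control 3).

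Between the groups, miR-155-5p was at 62.2 ± 13.1 RPM with PBS and 117 ± 82.8 RPM with LPS (SD, n = 3 each). In edgeR's quasi-likelihood test over 319 arms its log2 fold change was 0.89 ± 0.50 (standard error), the adjusted p was 0.994 and the unadjusted p 0.119. In that test 0% of the 319 arms were called at an adjusted p under 0.05, so that 0 of the 4 member arms tested stand against a background of 0 calls, with 7 arms higher and 1 lower at an unadjusted p under 0.05 and a smallest adjusted p of 0.657. Each LPS sample was above the control sample of the same number, by 10.4, 137 and 16.3 RPM. This order was found in 30 of the 319 arms, or 9.4%, on TMM-scaled values, and 3 pairs allow no p under 0.25 in an exact sign-flip test. An exact two-sided permutation test of the RPM gave p = 0.3, where 3 samples against 3 allow no p under 0.1. Without LPS 2 the log2 fold change was 0.11, and without the filter on low counts it was 0.91 with an adjusted p of 0.0421. In whole samples of cells, a larger share of cells that express a miRNA and more of it in each cell cannot be told apart.

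The 8 arms together made up between 0.00993% and 0.0122% of the hairpin reads in the 5 samples other than LPS 2, or 183 to 366 reads, and 0.0295% in LPS 2, or 3220 reads. Of the 8 arms, 4 passed the filter on low counts, namely miR-155-5p, miR-132-3p, miR-147-3p and miR-212-3p. The other 4 arms, miR-155-3p, miR-132-5p, miR-212-5p and miR-147-5p, did not pass it and are given as counts. miR-147-5p had more reads in all than miR-212-3p (123 against 58), but 122 of them were in LPS 2.

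**Figure D1:**
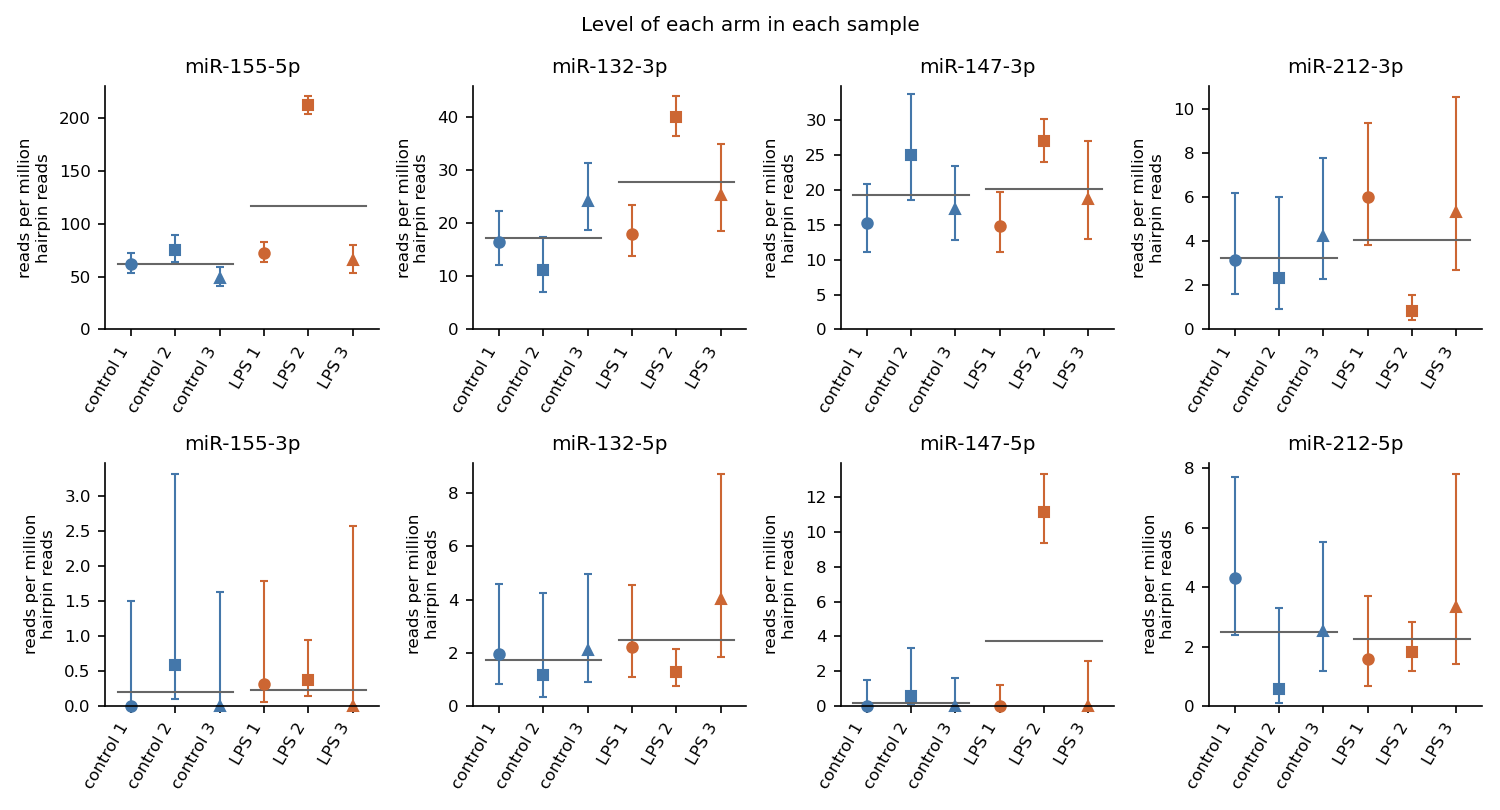
Level of each of the 8 arms (y axis, RPM, each panel with its own scale from 0) in the 3 control samples (blue) and the 3 LPS samples (orange). Bars are 95% Wilson intervals for counting error, grey lines are group means, and LPS 2 (orange square) is the highest sample for miR-155-5p, miR-132-3p, miR-147-3p and miR-147-5p and the lowest for miR-212-3p.

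miR-132-3p, the guide strand of its hairpin, was next in level. It was at 16.4, 11.1 and 24.1 RPM in control replicates 1, 2 and 3, from 42, 19 and 57 reads. In LPS replicates 1, 2 and 3 it was at 17.99, 39.99 and 25.4 RPM, from 57, 437 and 38 reads. LPS 2 was again the highest sample, LPS 3 lay just above the highest control sample with overlapping intervals (18.5 to 34.8 RPM against 18.6 to 31.2 RPM), and LPS 1 lay among the control samples. The group means were 17.2 ± 6.54 RPM and 27.8 ± 11.2 RPM (SD, n = 3 each). By edgeR the log2 fold change was 0.68 ± 0.38 (standard error), the adjusted p 0.994 and the unadjusted p 0.117, and the exact permutation test gave p = 0.2. Each LPS sample was above the control sample of the same number for miR-132-3p too, by 1.56 and 1.26 RPM in replicates 1 and 3. The log2 fold change was 0.25 without LPS 2, 1.08 with exact matches only and 1.27 with the most frequent sequence alone.

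miR-212-3p, which carries the same seed and lies beside miR-132 in the genome, did not share the high value of LPS 2. It was at 3.13, 2.33 and 4.23 RPM in control replicates 1, 2 and 3, from 8, 4 and 10 reads. In LPS replicates 1, 2 and 3 it was at 6.00, 0.824 and 5.34 RPM, from 19, 9 and 8 reads. LPS 1 and LPS 3 were above every control sample and LPS 2 was below every one of them, so that the groups overlapped, and the Wilson intervals of LPS 1 (3.84 to 9.37 RPM) and of control 3 (2.296 to 7.78 RPM) overlapped as well. By edgeR its log2 fold change was 0.07 ± 0.82 (standard error) with an adjusted p of 0.994, and the exact permutation test gave p = 0.7. Its direction was not stable: the log2 fold change was -0.82 without LPS 1, 0.76 without LPS 2, -0.14 without LPS 3 and -0.05 without control 2.

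miR-147-3p was at 15.3, 25.1 and 17.3 RPM in control replicates 1, 2 and 3, from 39, 43 and 41 reads. In LPS replicates 1, 2 and 3 it was at 14.8, 27.0 and 18.7 RPM, from 47, 295 and 28 reads. The 2 groups covered nearly the same range, with control 2 and LPS 2 as the highest samples of each. Its log2 fold change by edgeR was 0.07 ± 0.32 (standard error) with an adjusted p of 0.994, the exact permutation test gave p = 0.8, and without LPS 2 the log2 fold change was -0.24. Without control 1 it was -0.03 and without control 3 it was -0.02.

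In 0 of the 4 tested member arms did every LPS sample lie above, or every LPS sample lie below, every control sample. Each of these patterns was found in 5 of the 319 arms, or 1.57%, and without LPS 2 in 13 and 14 arms. LPS 2 was the highest sample for 3 of the 4 tested member arms and for 100 of the 319 arms. The median log2 fold change of the 4 member arms was 0.38 and that of all 319 arms was 0.0027. Without LPS 2 the values of the members were 0.11 (miR-155-5p), 0.25 (miR-132-3p), 0.76 (miR-212-3p) and -0.24 (miR-147-3p).

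**Figure D2:**
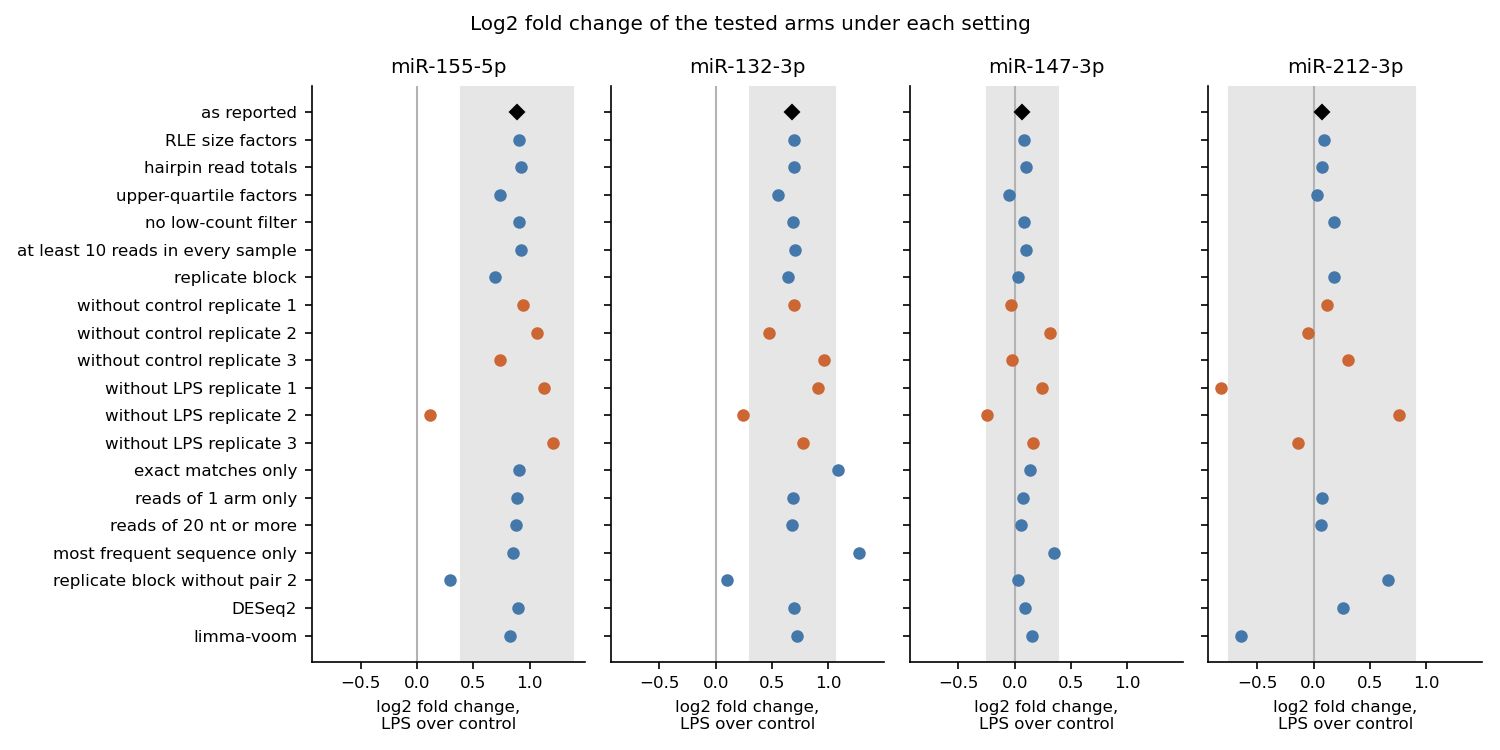
Log2 fold change of LPS over control (x axis) for the 4 arms tested, as reported (black diamond, grey band 1 standard error to each side), with 1 sample left out (orange) and with other settings (blue). Without LPS replicate 2 the value of miR-155-5p fell to 0.11, that of miR-132-3p to 0.25 and that of miR-147-3p to -0.24, while that of miR-212-3p was 0.76.

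The strands read less often gave few counts, with 1 exception. miR-155-3p, the passenger strand of miR-155, had 0, 1 and 0 reads in the 3 control samples, in the order of their numbers, and 1, 4 and 0 reads in the 3 LPS samples. miR-132-5p had 5, 2 and 5 reads in the control samples and 7, 14 and 6 in the LPS samples, and its levels ran from 1.17 RPM in control 2 to 4.003 RPM in LPS 3. miR-212-5p had 11, 1 and 6 reads in the control samples and 5, 20 and 5 in the LPS samples, with levels from 0.583 RPM in control 2 to 4.30 RPM in control 1. For each of these 3 arms LPS 2 was neither the highest nor the lowest sample. At such counts a difference between the groups was not detectable at this depth, and the exact permutation tests gave p = 1, p = 0.4 and p = 1 for miR-155-3p, miR-132-5p and miR-212-5p.

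The exception was miR-147-5p, which was read 122 times in LPS 2 and once in the other 5 samples together. The single other read came from control 2. In LPS 2 it stood at 11.2 RPM (Wilson interval 9.35 to 13.3 RPM). The counts of 0 allow up to 1.17 RPM in control 1, 1.27 RPM in control 3, 0.947 RPM in LPS 1 and 2.00 RPM in LPS 3, taking 3 reads as the limit of a count of 0. Without the filter on low counts, edgeR called miR-147-5p higher with LPS (log2 fold change 4.55, adjusted p = 0.000562), on the reads of LPS 2; the exact permutation test gave p = 1, since LPS 1 and LPS 3 had 0 reads, so that without LPS 2 no read of it was left in the LPS samples.

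Nearly all of the reads of miR-147-5p in LPS 2 were a single sequence. It is shown, as deposited, because it carries that signal; it starts where the RefSeq form starts and is 2 bases shorter at the 3′ end.
miR-147-5p, 118 of 122 reads in LPS 2: tggaaacatttctgcacaaact
The remaining 4 reads were a shorter form of 19 nt with the same start. The read in control 2 had 20 nt and began 4 bases before this start. In LPS 2 the 122 reads thus came from 2 distinct sequences.

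The balance of the 2 strands of a hairpin is a ratio within a sample and needs no normalization. From miR-155 the 5p strand made up between 99.2% and 100% of the hairpin's reads in the 6 samples. From miR-132 it made up 10.6%, 9.52% and 8.06% in control replicates 1, 2 and 3 and 10.9%, 3.10% and 13.6% in LPS replicates 1, 2 and 3. LPS 2 had the lowest share, with a Wilson interval of 1.86% to 5.14%, and the other 5 samples together gave 10.5% (7.22% to 15.0%). Taken singly, the interval of each control sample overlapped that of LPS 2, with control 3 at 3.49% to 17.5%. Those of LPS 1 and LPS 3 did not.

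From miR-212 the 5p strand made up 57.9%, 20% and 37.5% in control replicates 1, 2 and 3 and 20.8%, 69.0% and 38.5% in LPS replicates 1, 2 and 3, from 5 to 29 reads a sample. LPS 2 was again the outermost sample, here on the high side, with an interval of 50.8% to 82.7% against 26.5% to 47.5% for the other 5 together (36.4%). Taken singly, the intervals of the 3 control samples and of LPS 3 overlapped that of LPS 2, with control 1 at 36.3% to 76.9%. That of LPS 1 did not (9.24% to 40.5%). From miR-147 the 5p strand made up 29.3% of the reads in LPS 2 (25.1% to 33.8%) and 0.503% in the other 5 together (0.0888% to 2.79%). LPS 1 and LPS 3 had 0 of 47 and 0 of 28 reads on that strand, which gives upper Wilson bounds of 7.56% and 12.1%.

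Between the groups, no difference of these shares passed its test. The differences of the mean 5p share, LPS minus control, were 0.0547 percentage points for miR-155, -0.183 for miR-132, 4.29 for miR-212 and 8.99 for miR-147, with exact permutation p-values of 1, 1, 0.7 and 1 and adjusted values of 1 over 5 tests, the fifth being the ratio of miR-132-3p to miR-212-3p. The difference of miR-132 became 2.88 percentage points, that of miR-212 -8.82 and that of miR-147 -0.758 when LPS 2 was left out.

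**Figure D3:**
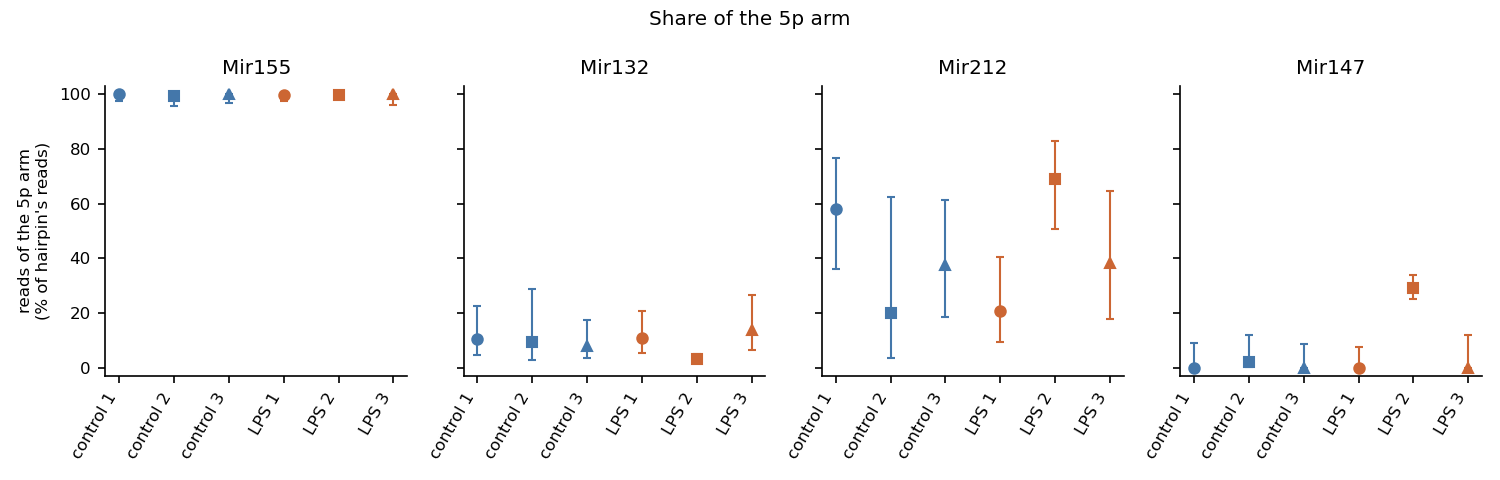
Reads of the 5p arm as a percentage of all reads of its hairpin (y axis) in each control sample (blue) and LPS sample (orange), with 95% Wilson intervals. LPS 2 (orange square) is at 3.10% for Mir132, 69.0% for Mir212 and 29.3% for Mir147, and all 6 samples are at 99.2% or above for Mir155.

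miR-132-3p and miR-212-3p come from one cluster and carry one seed, and their ratio set LPS 2 apart. There were 5.25, 4.75 and 5.70 reads of miR-132-3p for each read of miR-212-3p in control replicates 1, 2 and 3. The ratio was 3.00 in LPS 1, 48.6 in LPS 2 and 4.75 in LPS 3. On the log2 scale with a pseudocount of 0.5 read it was 2.297 ± 0.17 with PBS and 3.09 ± 2.13 with LPS (SD, n = 3 each), a difference of 0.79 with an exact permutation p of 0.9. Without LPS 2 the difference was -0.43. Of the reads of these 2 arms, whatever their 5′ start, miR-132-3p supplied 75% to 85.1% in the 5 other samples and 98.0% in LPS 2. Together the 2 arms reached 19.6, 13.4 and 28.3 RPM in control replicates 1, 2 and 3 and 23.98, 40.8 and 30.7 RPM in LPS replicates 1, 2 and 3.

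The order of the 8 arms by median level over the 6 samples was miR-155-5p (69.0 RPM), miR-132-3p (21.04 RPM), miR-147-3p (18.006 RPM), miR-212-3p (3.68 RPM), miR-212-5p (2.18 RPM), miR-132-5p (2.03 RPM), miR-155-3p (0.158 RPM) and miR-147-5p (0 RPM). Levels of different miRNAs also carry the ligation bias of small RNA libraries, which these data do not measure. miR-155-5p lay above miR-132-3p in 6 of 6 samples, by 1.90 ± 0.64 on the log2 scale (SD, n = 6), and miR-147-3p above miR-212-3p in 6 of 6, by 2.58 ± 1.34. miR-132-5p lay above miR-155-3p in 6 of 6 samples, by 2.56 ± 1.19. The size of that last step depends on the pseudocount of 0.5 read, since miR-155-3p had 0 to 4 reads a sample. Each of these 3 steps had an exact sign-flip p of 0.0313, the smallest that 6 samples allow, and an adjusted p of 0.0729 over the 7 steps. The steps were set by the medians of these same samples, so their p-values are no independent support for the order. miR-132-3p and miR-147-3p did not differ beyond their spread (0.12 ± 0.64, p = 0.719 by the exact sign-flip test), and their order turned with exact matches only. Nor did miR-212-3p and miR-212-5p (0.53 ± 1.14, exact p = 0.281) or miR-212-5p and miR-132-5p (0.06 ± 0.67, exact p = 0.813), and miR-147-5p stood above miR-155-3p in LPS 2 alone.

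The ends of the reads show which molecules were counted. miR-155-5p was read with the same 5′ end, that of the RefSeq form, in 97.4% to 100% of its reads in each sample, so that its seed was the annotated one. Its 3′ end varied. The 5 most frequent forms are shown as deposited, with the bases past the 3′ end of the RefSeq form in capitals, all of which match the hairpin.
miR-155-5p, 21 nt: ttaatgctaattgtgataggg
miR-155-5p, 22 nt: ttaatgctaattgtgatagggg
miR-155-5p, 23 nt: ttaatgctaattgtgataggggt
miR-155-5p, 24 nt: ttaatgctaattgtgataggggtT
miR-155-5p, 25 nt: ttaatgctaattgtgataggggtTT
The 23 nt form made up 30.8%, 30.2% and 25.0% of the reads of miR-155-5p in control replicates 1, 2 and 3 and 32.2%, 41.8% and 21.4% in LPS replicates 1, 2 and 3. The 24 nt form made up 29.6%, 31.8% and 41.4% in the control samples and 31.3%, 28.4% and 43.9% in the LPS samples. The 24 nt form was furthest ahead of the 23 nt form in control 3 and LPS 3, and furthest behind it in LPS 2. LPS 2 had the largest share of the 23 nt form and of the 21 nt form, which made up 4.79% of its reads and 0.862% to 1.89% in the others.

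Mean read length of miR-155-5p was 23.7 ± 0.122 nt with PBS and 23.6 ± 0.199 nt with LPS (SD, n = 3 each), a difference of -0.157 nt with an exact permutation p of 0.5. LPS 2 had the shortest mean, 23.4 nt, and control 2 the longest, 23.9 nt. Reads with bases at the 3′ end that do not match the hairpin made up 12.6% ± 1.37 with PBS and 12.9% ± 4.31 with LPS (exact permutation p = 0.9), with LPS 2 lowest at 8.06% and LPS 3 highest at 16.3%. The share of the main 5′ end differed by 0.733 percentage points (exact permutation p = 1). The adjusted p over these 3 tests was 1 for each.

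LPS 2 held few distinct sequences of these miRNAs for its number of reads. The 2319 reads of miR-155-5p there fell on 29 distinct sequences, of which 2 were read once, or 80.0 reads per sequence. In the other samples 98 to 230 reads fell on 18 to 22 sequences, or 4.45 to 10.5 reads per sequence. The 437 reads of miR-132-3p in LPS 2 fell on 9 sequences, and the 19 to 57 reads in the other samples fell on 6 to 12. The 295 reads of miR-147-3p in LPS 2 fell on 8 sequences, and the 28 to 47 reads in the other samples fell on 8 to 12. Reads per sequence rise with depth, and whether the reads of LPS 2 were filtered in another way is not given in the sources used here.

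**Figure D4:**
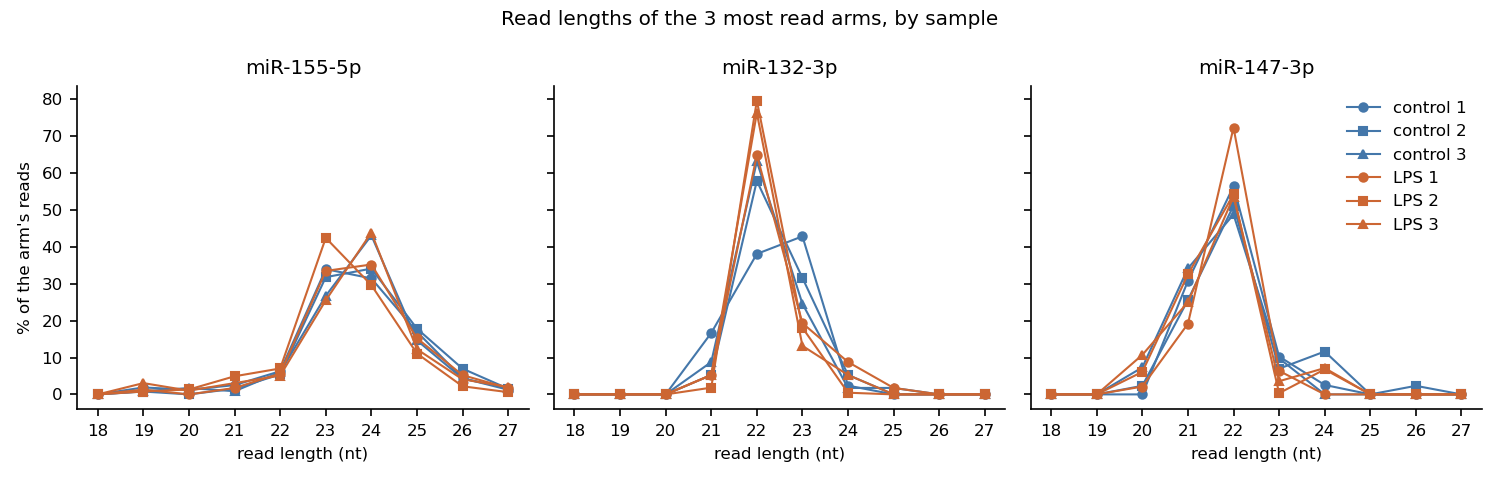
Read length (x axis, nt) against the percentage of the arm's reads of that length (y axis) for miR-155-5p, miR-132-3p and miR-147-3p, with 1 line for each control sample (blue) and LPS sample (orange). Reads of miR-155-5p were spread over 23 and 24 nt, while most reads of miR-132-3p had 22 nt, except in control 1, where 23 nt were more frequent.

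Only miR-155-5p had at least 50 reads in every sample, so the ends of the other arms are described without a test. miR-132-3p began at the RefSeq start in 98.0% of its 650 reads, and its forms differed at the 3′ end. The main form and the next are shown, with the added base that does not match the hairpin in capitals.
miR-132-3p, 22 nt: taacagtctacagccatggtcg
miR-132-3p, 23 nt: taacagtctacagccatggtcgT
The 22 nt form made up 35.7%, 52.6% and 59.6% of its reads in control replicates 1, 2 and 3 and 63.2%, 79.4% and 76.3% in LPS replicates 1, 2 and 3. The form with the added base made up 33.3%, 21.1% and 17.5% in the control samples and 14.0%, 13.5% and 7.89% in the LPS samples. The share of the 22 nt form was higher in every LPS sample than in every control sample, at 19 to 57 reads a sample outside LPS 2. This order of the most frequent form was found in 12 of the 277 arms with at least 10 reads in every sample, or 4.33%, and in 7.22% without LPS 2.

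Over all of its reads, 3′ bases that do not match the hairpin were found in 22 of 42, 9 of 19 and 18 of 57 reads of miR-132-3p in control replicates 1, 2 and 3 (52.4%, 47.4% and 31.6%). In LPS replicates 1, 2 and 3 they were found in 17 of 57, 86 of 437 and 8 of 38 reads (29.8%, 19.7% and 21.1%). Every LPS sample lay below every control sample, with control 3 (Wilson interval 21.004% to 44.5%) and LPS 1 (19.5% to 42.7%) nearly level. Both shares of miR-132-3p were compared between the groups after their values had been seen, and they are not independent, since a read of the 22 nt form has no unmatched base. The order of the unmatched share, every LPS sample below every control sample, was found in 14 of the same 277 arms, or 5.05%, and the opposite order in 1.81%. Without LPS 2 it was found in 19 of the 277 arms, or 6.86%, miR-132-3p among them. miR-147-3p, with 7.32% to 23.3% of its reads in the control samples and 10.6% to 14.3% in the LPS samples, and miR-155-5p did not show it.

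**Figure D5:**
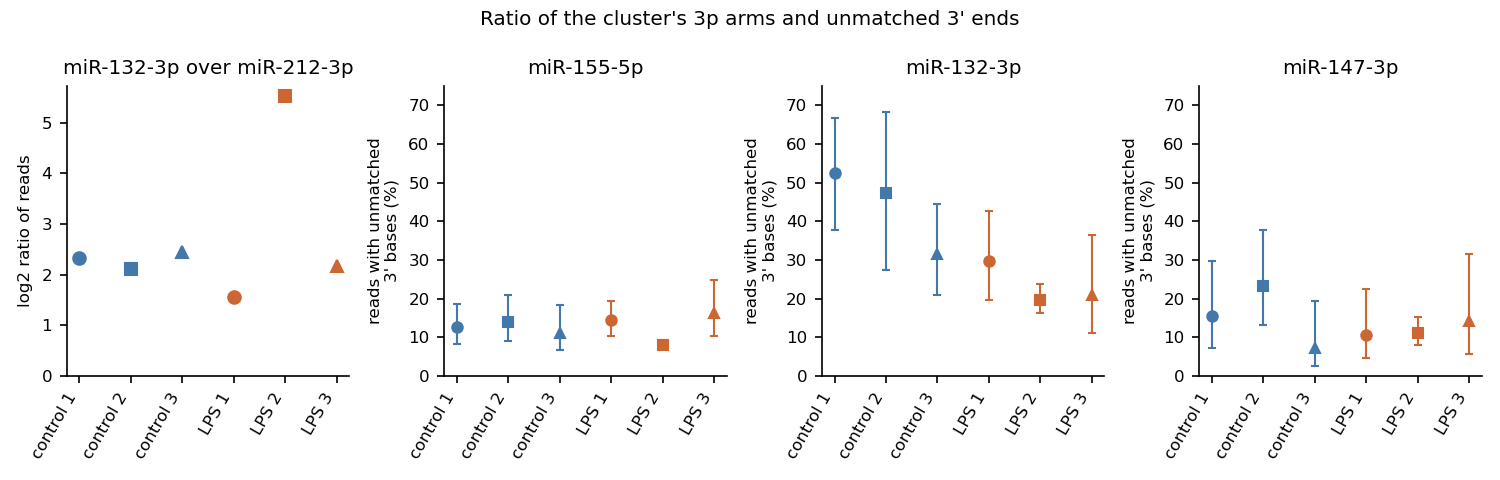
Log2 ratio of miR-132-3p reads to miR-212-3p reads (left) and the percentage of reads with 3′ bases that do not match the hairpin for miR-155-5p, miR-132-3p and miR-147-3p (with 95% Wilson intervals), in each control sample (blue) and LPS sample (orange). The ratio is 5.53 in LPS 2 and at most 2.45 elsewhere, and the unmatched share of miR-132-3p is at 31.6% or above in the control samples and at 29.8% or below in the LPS samples.

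The few reads of miR-212-3p in LPS 2 were mostly of another form than elsewhere. The main form of the other samples lacked the last base of the RefSeq form and is shown beside the main form of LPS 2, in which capitals mark bases that do not match the hairpin.
miR-212-3p, 21 nt: taacagtctccagtcacggcc
miR-212-3p, 25 nt: taacagtctccagtcacggccaAAG
The 21 nt form made up 28 of 49 reads in the 5 other samples together and 1 of 9 reads in LPS 2. The 25 nt form made up 6 of the 9 reads in LPS 2 and was read 0 times in the other 5 samples. With exact matches only, 1 read of miR-212-3p was left in LPS 2. miR-147-3p began at its main 5′ end in 92.1% of its 493 reads, a lower share than miR-155-5p (99.6%) or miR-132-3p (98.0%). For miR-147-3p, LPS 2 supplied 295 of these reads, with a share of 95.6%. The other 5 samples together gave 86.9%, and singly they ran from 81.4% in control 2 to 92.3% in control 1.

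The strand that is read less from the miR-132 hairpin was mostly found 1 base inward of the RefSeq start. The form shown made up 30 of the 39 reads of miR-132-5p, with the base past the RefSeq 3′ end, which matches the hairpin, in capitals.
miR-132-5p, 22 nt: accgtggctttcgattgttacT
It was the only form in all 3 control samples and in LPS 1, and 7 of 14 reads in LPS 2. Bases 2 to 8 of this form are therefore not the seed of the RefSeq entry but the same stretch moved by 1 base. The most frequent form of miR-212-5p, with 22 of 48 reads, was the RefSeq form itself.

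Other miRNAs that respond to TLR4 ligands were taken as a list of 17 arms, chosen from general knowledge and with earlier results of these samples known. Of these, 14 passed the filter, 0 were called higher or lower (background 0%), 4 had a log2 fold change above 0 and 10 below it, and their median was -0.05 against 0.0027 over all arms. miR-146a-5p, which targets Irak1 and Traf6 of the TLR signalling pathway, and its relative miR-146b-5p, had log2 fold changes of 2.43 ± 1.12 and 1.73 ± 0.90 (standard error). By edgeR both had an adjusted p of 0.994. Without LPS 2 the log2 fold changes were -0.16 and 0.04. Both arms were highest in LPS 2, miR-146a-5p at 55427 RPM against 2822 to 4515 RPM in the other 5 samples. miR-125b-5p and miR-99b-5p had values of -0.33 and -0.23, miR-21a-5p -0.15 and miR-222-3p 0.0049, all with an adjusted p of 0.994. miR-223-3p, which is abundant in myeloid cells, was on TMM-scaled values lower in every LPS sample than in every control sample, as in 1.57% of all arms, by a log2 fold change of -0.04; in RPM the groups overlapped. The list shares miR-223-3p with the myeloid and miR-9-5p with the neuronal arms of the cell type check. Of the 3 arms that did not pass, miR-187-3p had at most 2 reads in a sample, miR-9-5p 4 to 10 and miR-203-3p 5 to 32.

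The arms whose levels over the 6 samples were most like those of each member are given as a description, since LPS 2 and the depth of the samples enter all of them. They were compared on TMM-scaled log2 levels and are the 3 highest among all other tested arms, so that a high r comes with the choice. The values without LPS 2 reuse 5 of the samples that chose the arms and are no separate check. For miR-155-5p the closest arms were miR-29b-3p (Pearson r = 0.99 over 6 samples, 0.97 without LPS 2), miR-146a-5p (0.98, and 0.87 without LPS 2) and miR-149-5p (0.98, and 0.89 without LPS 2). For miR-132-3p they were miR-34a-5p (0.97, and 0.97 without LPS 2), the arm Mirlet7d-3p (0.94, and 0.85) and miR-339-3p (0.93, and 0.92). For miR-212-3p they were miR-101b-3p (0.99, and 0.98 without LPS 2), miR-148a-5p (0.96, and 0.85) and miR-671-3p (0.94, and 0.75). For miR-147-3p they were the arm Mir484-5p (0.98, and 0.97 without LPS 2), miR-511-3p (0.95, and 0.99) and miR-505-3p (0.93, and 0.88). With arms chosen without LPS 2, miR-29b-3p stayed first for miR-155-5p and miR-101b-3p for miR-212-3p. The first arm was then miR-140-3p for miR-132-3p and miR-421-3p for miR-147-3p. None of the 4 members was among the arms closest to another, and miR-132-3p and miR-212-3p, from the same cluster, had an r of -0.45 over the 6 samples and of 0.73 over the 5 without LPS 2.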

How the data were processed

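Small RNA libraries of 3 control and 3 LPS samples of BMMs were prepared by the authors with a TruSeq kit, sequenced on an Illumina HiSeq and trimmed with perl scripts and Btrim64. The files deposited by the authors hold raw counts of each distinct trimmed sequence of 11 to 40 nt, without miRNA names, normalization or coordinates; the labels name mm9 as the build.

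Reads of at least 18 nt were matched to 1174 GENCODE M21 hairpins (GRCm38) without mismatch, allowing up to 3 unmatched bases at the 3′ end. RPM is reads per 1000000 hairpin reads. Counts per arm were tested with edgeR 4.0.16 (filterByExpr, TMM, quasi-likelihood, Benjamini-Hochberg adjustment, R 4.3.3) and single values by exact permutation of samples or sign flips (scipy 1.17.1), all two-sided. Intervals are 95% Wilson intervals. DESeq2 1.42.0 and limma 3.58.1 (voom) were alternatives. The scripts were tested on simulated data.

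The members, lists and tests were chosen with earlier results of these data known. All arms of the members are named, all 17 arms of the TLR4 list are counted, and the 3 arms most like each member's leading arm are named. Labels number the samples 1 to 3 in both groups. Across arms, a sample's deviation from its group mean correlated with that of its namesake in the other group at 0.590, 0.258 and 0.278. With the other samples of that group it correlated at -0.382 to 0.151. From these data alone the numbers were taken to pair the samples. The main fit and the permutation tests were unpaired, and pairs entered only the differences by number and the alternative with a replicate block.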

Additional observations from a re-analysis of the deposited data

How the results depend on the processing

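Without the filter on low counts, 21 arms were called higher with LPS, where 0 were called with it, and miR-155-5p (0.907, adjusted p = 0.0421 in edgeR's test) passed the threshold; the cause was not tested. In that fit the arms that otherwise failed the filter had log2 fold changes of 0.75 (miR-155-3p), 0.33 (miR-132-5p), -0.31 (miR-212-5p) and 4.55 (miR-147-5p). The direction of miR-212-3p turned with limma-voom (-0.646) and that of miR-147-3p with upper-quartile factors (-0.0462). With exact matches only, the log2 ratio of miR-132-3p over miR-147-3p was -0.280 and that of miR-212-5p over miR-132-5p was -0.368. In that setting the differences of the 5p share were 0.0668 percentage points (miR-155), -4.21 (miR-132), 12.7 (miR-212) and 9.61 (miR-147). That of the log2 ratio of miR-132-3p to miR-212-3p was then 1.89. With 1 sample left out, 0 arms were called in either direction, and the log2 fold changes ranged from 0.114 to 1.21 for miR-155-5p, 0.245 to 0.958 for miR-132-3p, -0.823 to 0.761 for miR-212-3p and -0.244 to 0.318 for miR-147-3p. The differences of the 5p share ranged from -0.202 to 0.183 percentage points (miR-155), -2.39 to 2.88 (miR-132), -8.82 to 15.2 (miR-212) and -0.758 to 13.9 (miR-147), and that of the log2 ratio of miR-132-3p to miR-212-3p from -0.427 to 1.56. For miR-155-5p, those of the main 5′ end ranged from -0.129 to 1.16 percentage points, of unmatched 3′ bases from -1.37 to 2.76, and of the mean length from -0.245 to -0.0488 nt. Without LPS 2, a choice made after seeing the data, 13 arms were higher and 14 lower in every remaining LPS sample than in every control sample, in place of 5 each. With the replicate number as a block, which pairs the samples, the log2 fold changes were 0.690 (miR-155-5p), 0.637 (miR-132-3p), 0.178 (miR-212-3p) and 0.0304 (miR-147-3p), and the block changed no call; without pair 2, added after seeing the data, they were 0.297, 0.102, 0.661 and 0.0261. miR-212-3p gave no value with at least 10 reads in every sample, with exact matches only or with the most frequent sequence only. Depth limits the arms with under 50 reads in a sample, all but miR-155-5p.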
